A study of Mus musculus with 6 samples.

Results

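The genes described here are the mouse enzymes that spend or break down glutathione: the soluble glutathione transferases of the alpha, mu, pi, theta, omega, kappa and zeta classes, the microsomal transferases, the glutathione peroxidases and the gamma-glutamyltransferases. They were chosen by symbol, as every gene whose name starts with Gst and a class letter, with Mgst, with Gpx or with Ggt, followed by a number. The rule found 37 of the 24422 genes counted. Of these, 32 had at least 60 reads over the 6 libraries and were given a fold change, and 5 had fewer.

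Poly-A RNA from whole kidneys of C57BL/6 mice at postnatal day 13 was sequenced in 6 libraries, 3 named Control and 3 named TfR1KO. All animals were on an iron sufficient diet with 220 ppm iron. The Control animals were, by the study, wild type littermates. The study also uses wild type for littermates with floxed alleles, so whether these animals carried them is not known here. The TfR1KO animals carried floxed alleles of the transferrin receptor, TfR1 (gene Tfrc), and a Six2Cre driver that is active in nephron progenitors, so ureteric bud, stroma, vessels and blood keep an intact receptor, and the study describes tubule cells that escaped deletion. Transferrin receptor carries iron-loaded transferrin into cells, and the comparison asks how kidney RNA differed when the nephron lineage lacked it. Reads of Tfrc did not separate the groups (normalized counts of 5534, 6485 and 3667 in Control and 6976, 4045 and 5898 in TfR1KO). Only some exons were deleted and only in some cells, so this gene does not check the labels. Total counts ran from 16591156 to 22898008 per library. Males and females were mixed: reads of the Y-linked gene Ddx3y were frequent in Control replicate 2 and in TfR1KO replicates 1 and 3 (1410, 1819 and 2347 normalized counts) and at most 10.8 in the others. TfR1KO replicate 3 also had 1031 normalized counts of Xist, the RNA of the inactive X, against 78.2 and 145 in the other libraries with Y-linked reads and at least 16704 in those without, which was not resolved. Without TfR1KO replicate 3 the DESeq2 call of Gstm7 was lost and those of the other 5 members called higher were kept.

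Glutathione is a small thiol that cells use against oxidants and reactive chemicals. Transferases attach it to electrophiles, peroxidases use it to reduce hydrogen peroxide and lipid peroxides, and gamma-glutamyltransferase at the cell surface starts the breakdown of glutathione and of its conjugates. The kidney, above all the proximal tubule, is rich in all of these, makes most of the peroxidase found in plasma, and finishes the conversion of conjugates to mercapturates for excretion. Several alpha and mu transferases are known targets of the oxidant-responsive factor Nrf2, and most of the abundant peroxidases contain selenium.

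The alpha genes Gsta4, Gsta1 and Gsta2 lie together on chromosome 9 (chr9:78039773-78203595, mm9), and the 7 mu genes on chromosome 3 (chr3:107698739-107847812, mm9). Reads were counted only where they aligned uniquely, and some members of these clusters are close copies. The coding sequences of Gsta1 (672 bases) and Gsta2 (669 bases) were identical at 655 of 672 aligned positions (97.5%), with 14 substitutions and 3 gapped positions. The stretch of 60 bases from coding position 449 to 508 is shown because it holds 5 of those substitutions, in capitals. Reads of Gsta1 and Gsta2 differ there, but other related genes were not compared at these positions.
Gsta1: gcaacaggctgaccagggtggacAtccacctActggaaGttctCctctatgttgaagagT
Gsta2: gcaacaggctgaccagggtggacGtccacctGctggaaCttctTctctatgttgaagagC
Of all 50-base windows of the Gsta1 transcripts, 89.7% occurred also in transcripts of Gsta2 or of the unnamed relatives Gm10639, Gm3776 and Gm8074, against 48.2% for Gsta2. The share was 12.7% for Gstm1, 4.98% for Gstm2 and 0.473% for Gstm7, and 67.5% for Gstp1, whose copy is Gstp2. It was 0% for Gstm5 and for the peroxidases Gpx1, Gpx3 and Gpx4. Counts of Gsta1, Gsta2, Gstp1 and Gstp2 are therefore partial, and reads may be split among the copies.

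The 250 bases before the start sites of Gsta1, Gsta2, Gstm1 and Gstm5 are shown because these 4 transferases carried the lowest adjusted p of the members. They come from RefSeq on GRCm38.p6, a later build than that of the counts, and read 5′ to 3′ on the strand of the gene. The windows are chr9:78230419-78230668 (plus strand) for Gsta1, chr9:78347146-78347395 (minus strand) for Gsta2, chr3:108017974-108018223 (minus strand) for Gstm1 and chr3:107895604-107895853 (plus strand) for Gstm5. Gstm1 has several start sites in RefSeq, and the window of the upstream site is printed. Capitals mark a match to TGACNNNGC, the core of the antioxidant response element to which Nrf2 binds.
Gsta1: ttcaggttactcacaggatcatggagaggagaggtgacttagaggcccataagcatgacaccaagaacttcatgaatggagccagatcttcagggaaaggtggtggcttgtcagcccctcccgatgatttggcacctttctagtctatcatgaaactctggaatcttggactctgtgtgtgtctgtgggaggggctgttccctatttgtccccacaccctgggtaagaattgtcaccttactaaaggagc
Gsta2: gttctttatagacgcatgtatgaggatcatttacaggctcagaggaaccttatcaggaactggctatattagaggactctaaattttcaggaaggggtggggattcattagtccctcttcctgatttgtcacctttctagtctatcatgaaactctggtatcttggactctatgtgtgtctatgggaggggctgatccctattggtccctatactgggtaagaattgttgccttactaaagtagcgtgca
Gstm1: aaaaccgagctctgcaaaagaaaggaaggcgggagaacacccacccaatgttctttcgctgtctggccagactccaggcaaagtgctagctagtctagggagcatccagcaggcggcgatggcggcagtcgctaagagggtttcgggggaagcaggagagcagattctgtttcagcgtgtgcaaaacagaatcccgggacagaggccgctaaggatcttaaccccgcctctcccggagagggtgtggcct
Gstm5: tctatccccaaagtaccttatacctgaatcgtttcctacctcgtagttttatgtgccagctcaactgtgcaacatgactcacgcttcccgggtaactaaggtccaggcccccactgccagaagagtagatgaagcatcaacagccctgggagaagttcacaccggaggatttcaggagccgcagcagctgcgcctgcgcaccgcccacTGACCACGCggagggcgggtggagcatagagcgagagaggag
The upstream stretches of Gsta1 and Gsta2 matched over 165 aligned positions at 83% identity. Within these 250 bases the core matched only in Gstm5 among the 4 shown, starting 42 bases before the start site. On either strand it occurred in 7 of 48 member windows of 300 bases (250 before to 50 after a start site; 14.6%), belonging to 5 of the 33 members with a RefSeq entry (Ggt1, Gsta3, Gstm5, Gstm7 and Mgst1), and in 12.4% of all 32851 windows. The core of the hypoxia element, ACGTG, occurred in 18.8% of member windows and 19.6% of all windows. The longer HNF1 site, bound by a factor of tubule epithelium, occurred in 0 of 48 member windows and 0.399% of all. Sequence more than 250 bases before a start site was not searched, so sites further upstream would have been missed.

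In TfR1KO kidneys 5 transferases and the plasma peroxidase Gpx3 were called higher by DESeq2, and no member was called lower. By DESeq2, 6 of the 32 members had an adjusted p under 0.05 and were higher in TfR1KO (Gsta1, Gstm1, Gsta2, Gstm5, Gpx3 and Gstm7), where 7.74% of all 16509 genes tested were. This count, and those with a 2-fold limit and by edgeR, include Gsta1, which met the read limit only through the TfR1KO libraries. Of the 6 called by DESeq2, 5 were at least 2-fold higher, against 4.41% of all genes. Lower in TfR1KO were 0 of 32, against 7.18% of all genes, and against 4.46% with a 2-fold limit. At an unadjusted p under 0.05 DESeq2 had 3 members lower (Gpx7, Gpx8 and Mgst2). Of these, Mgst2 met the read limit only through the Control libraries. The share of all genes at an unadjusted p is not given here, so these counts are description only. The stricter quasi-likelihood test of edgeR called 3 members higher (Gsta1, Gstm1 and Gsta2), against 3.22% of its 15308 genes, and 0 lower, against 2.8%; it had 2 lower at an unadjusted p under 0.05, and limma-voom had 0 lower with 3 at an unadjusted p under 0.05. The median log2 fold change was 0.24 over the 32 members and 0.0071 over all genes tested. Fold changes are TfR1KO over Control throughout, from DESeq2 without shrinkage.

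The libraries of the groups did not overlap for 10 members that were higher in TfR1KO and for 5 that were higher in Control. The 10 include Gsta1, which met the read limit only through TfR1KO. Among the 5 is Mgst2, which met it only through Control, so neither adds support to these counts. Over all genes tested these shares were 16.9% and 16.9%. TfR1KO replicate 2 had the highest value of any library for 5 of the 6 genes called higher by DESeq2, and Control replicate 3 the lowest for Gsta2, Gstm1, Gpx3 and Gstm7. Calls that depend on either library are given beside the genes.

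**Figure D1:**
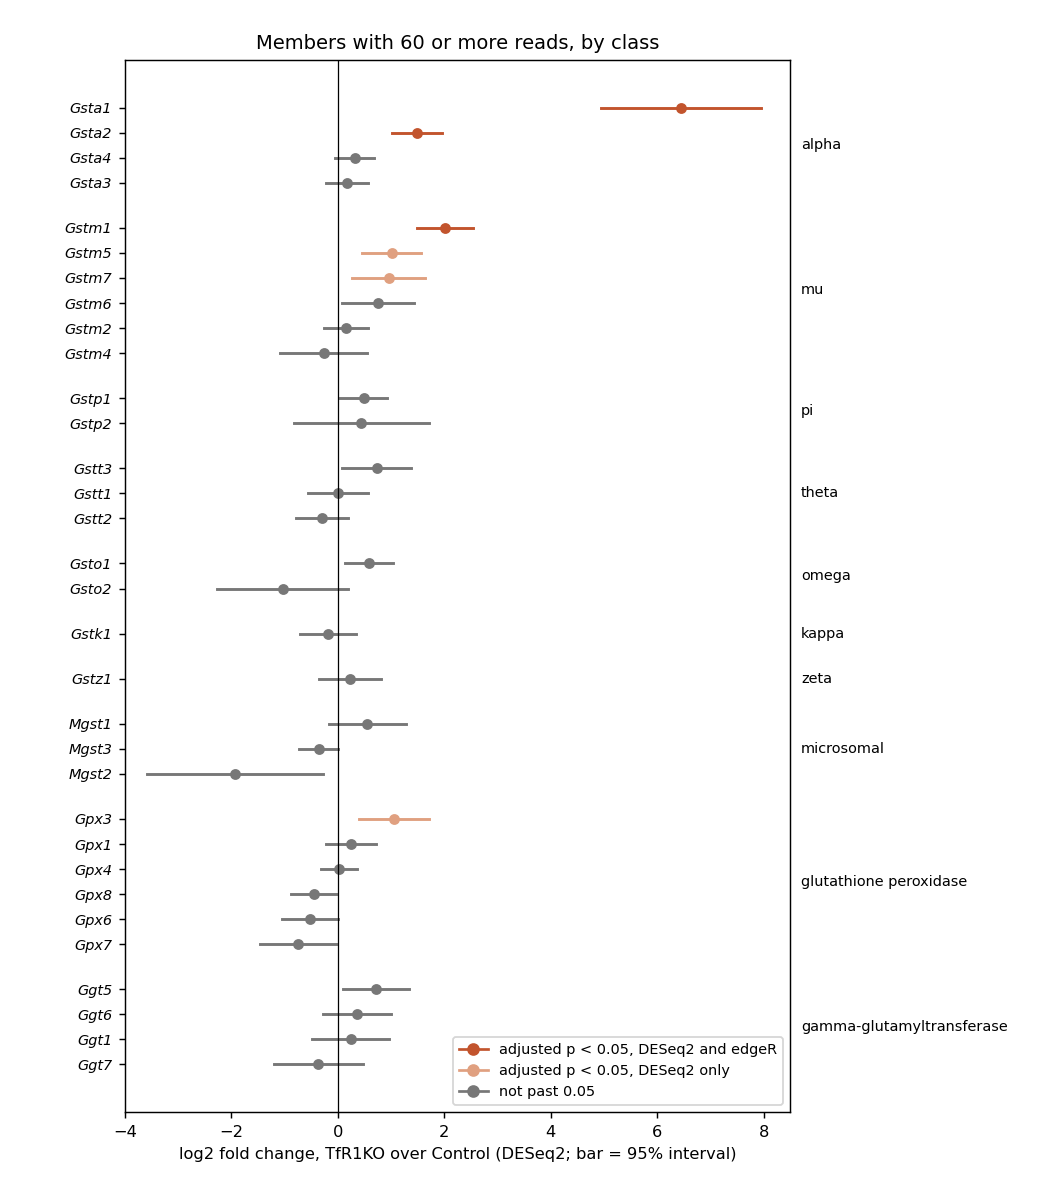
Log2 fold change (TfR1KO over Control, x axis) of the 32 members with at least 60 reads, grouped by class, with 95% intervals from DESeq2, coloured by whether DESeq2 and edgeR, DESeq2 alone or neither called the gene. The 6 called genes all lie to the right of 0, from 0.95 (Gstm7) to 6.44 (Gsta1), and the members to the left of 0 have no call.

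Alpha class. These transferases handle lipid peroxidation products and bulky electrophiles, and Gsta2 is the most abundant of them in the TfR1KO kidneys. Gsta1 was close to absent in Control, with 5, 0 and 0 reads, and had 108, 127 and 134 reads in TfR1KO. No TfR1KO library was near any Control library. The ratio of the summed reads, at equal depth, was 84.1 (95% interval 35.7 to 261, counting error only), and the log2 fold change was 6.44 ± 0.76 (SE; adjusted p = 7.01e-15 by DESeq2 and 0.00839 by edgeR, n = 3 per group). Since nearly all of its reads came from TfR1KO, it could pass the read limit only by differing, and its test adds no support to the count of members. With 89.7% of its windows shared, part of these reads may belong to its relatives.

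Gsta2 had 2211, 2275 and 1449 normalized counts in Control and 6420, 5463 and 4724 in TfR1KO. Every TfR1KO library was above every Control library, and Gsta2 made up 30.1 to 43.0% of the reads of its class in Control and 55.0 to 61.2% in TfR1KO. Its log2 fold change was 1.48 ± 0.24 (SE; adjusted p = 5.06e-08 by DESeq2 and 0.0132 by edgeR). Leaving out any of the 6 libraries kept the DESeq2 call for both genes. The log2 fold change then ran from 1.30 to 1.59 for Gsta2 and from 5.85 to 6.67 for Gsta1. The range for Gsta1 leaves out the fit without Control replicate 1, where the remaining Control libraries had 0 reads and no fold is given.

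Gsta4, which conjugates 4-hydroxynonenal, lies beside them but did not pass. It had 1946, 2064 and 2323 normalized counts in Control and 2836, 2891 and 2184 in TfR1KO, groups that overlapped (log2 fold change 0.32, adjusted p = 0.254 by DESeq2). Gsta3, on chromosome 1, was likewise similar in level (1028 ± 41.9 and 1162 ± 237 normalized counts, SD, n = 3, and 0.18 on the log2 scale).

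Of the unnamed relatives, Gm10639 and Gm3776 were looked at after the shared windows were seen, and lie outside the rule. Gm10639 had 365, 365 and 252 reads in Control and 1895, 866 and 1409 in TfR1KO (log2 fold change 2.26 ± 0.25, adjusted p = 7.26e-17 by DESeq2 and 0.00393 by edgeR). Gm3776 had at most 1 read in a Control library and 30, 39 and 51 in TfR1KO. These genes moved in the direction of Gsta1 and Gsta2. A sum over the copies does not recover reads that matched more than 1 of them and were not counted. Summed over the 4 alpha members with Gm10639 and Gm3776, but not Gm8074, TfR1KO was 2.02-fold Control. Without the relatives it was 1.85-fold (5119 ± 290 to 9467 ± 1324 normalized counts, SD, n = 3), with no overlap between groups in either sum.

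Mu class. Gstm1, a main cytosolic transferase of the kidney, had 2794, 3326 and 2372 normalized counts in Control and 9197, 15576 and 9550 in TfR1KO. The lowest TfR1KO library was far above the highest Control library. The log2 fold change was 2.01 ± 0.27 (SE; adjusted p = 6.84e-12 by DESeq2 and 0.00809 by edgeR), and from 1.73 to 2.15 with each library left out in turn, always called. In share of the mu reads, Gstm1 went from 28.8 to 36.7% in Control to 54.5 to 60.04% in TfR1KO, while Gstm2 went from 34.1 to 39.4% to 14.7 to 23.1%, with no overlap for either.

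Gstm5, which is prominent in brain and testis, had 1806, 2093 and 2194 normalized counts in Control and 3003, 5847 and 3454 in TfR1KO. The groups did not overlap, with TfR1KO replicate 2 well above the rest. The log2 fold change was 1.01 ± 0.28 (SE; adjusted p = 0.00471 by DESeq2 and 0.0599 by edgeR), and without Control replicate 1 it was 0.93 with an adjusted p of 0.0694 by DESeq2. Without TfR1KO replicate 2 it was 0.67, less than 2-fold, and still called (adjusted p = 0.00354 by DESeq2). Of its exonic bases, 13.9% overlap 4933431E20Rik on the opposite strand, and whether the counting used strand is not given in the sources used here.

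Gstm7 had 200, 167 and 104 normalized counts in Control and 265, 418 and 235 in TfR1KO. The groups did not overlap but lay close (log2 fold change 0.95 ± 0.35 SE; adjusted p = 0.0423 by DESeq2 and 0.124 by edgeR). Its call was lost without Control replicate 2 (adjusted p = 0.140), Control replicate 3 (0.141), TfR1KO replicate 2 (0.233) or TfR1KO replicate 3 (0.0525), all by DESeq2.

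The other mu genes did not pass. Gstm6 had 0.76 on the log2 scale with groups that did not overlap, Gstm2 had 0.15 and Gstm4 had -0.26. Gstm3 had 1, 2 and 0 reads in Control and 13, 13 and 12 in TfR1KO, too few for a fold change under the rule. Along chromosome 3 the order is Gstm5, Gstm7, Gstm6, Gstm3, Gstm2, Gstm1 and Gstm4. Gstm1, with the largest fold change of the mu genes given one, thus lay between the neighbours with 0.15 and -0.26. Summed over the class, TfR1KO held 19626 ± 5483 normalized counts against 8455 ± 523 in Control (SD, n = 3; 2.32-fold), and 1.46-fold without Gstm1.

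**Figure D2:**
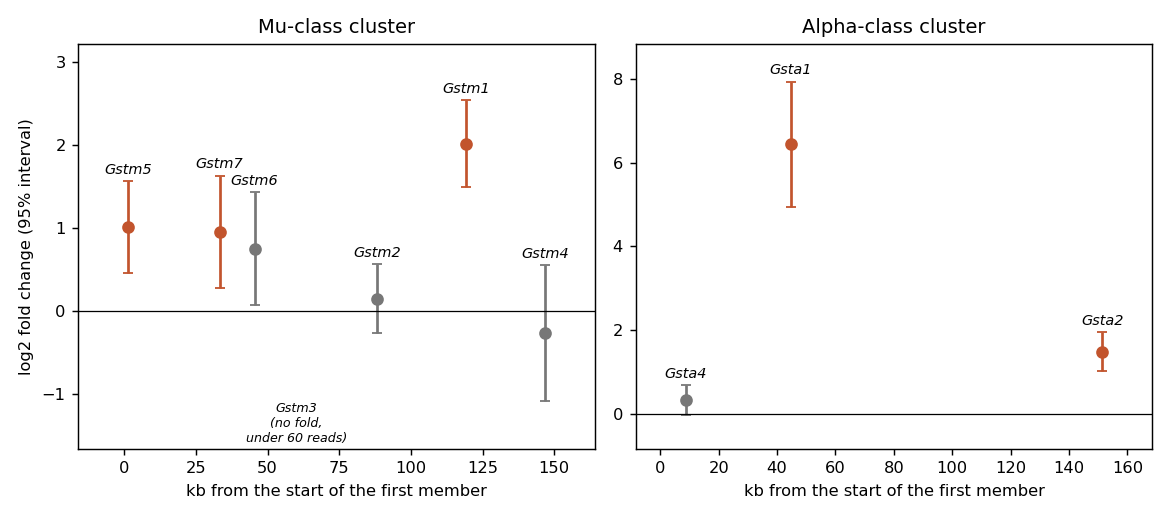
Log2 fold change with 95% interval (y axis; the scales differ between panels) against distance from the start of the first member in kb (x axis), for the mu cluster (left) and the alpha cluster (right), with colour for called genes. Gstm1 stands at 2.01 between Gstm2 at 0.15 and Gstm4 at -0.26, and Gsta1 at 6.44 and Gsta2 at 1.48 stand above Gsta4 at 0.32; Gstm3 had under 60 reads and no fold.

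**Figure D3:**
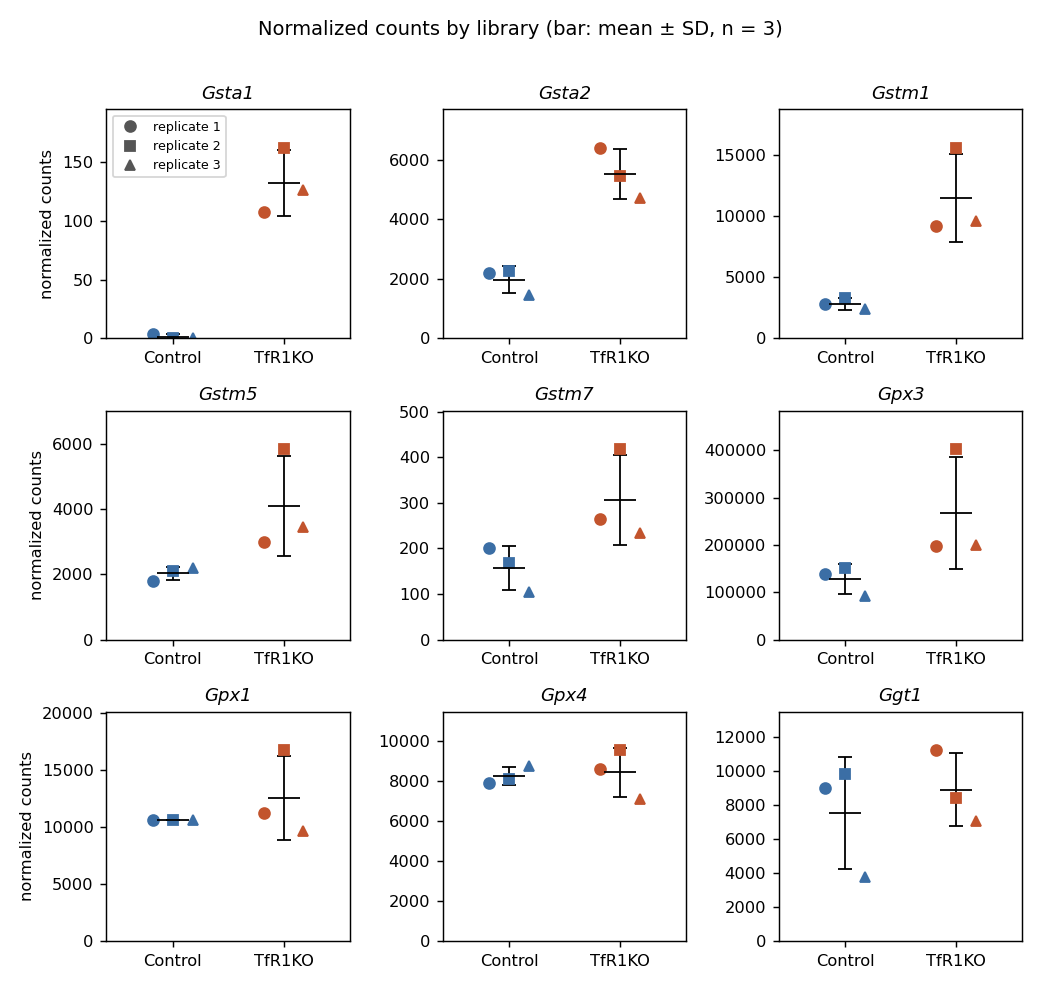
Normalized counts (y axis, linear from 0, a scale per gene) of 9 members in each Control (blue) and TfR1KO (orange) library, with the mean and SD of each group (n = 3) in black. For Gsta1, Gsta2, Gstm1, Gstm5, Gstm7 and Gpx3 all TfR1KO points lie above all Control points, whereas the points of Gpx1, Gpx4 and Ggt1 overlap.

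Other transferases. The classes pi, theta, omega, kappa and zeta had no member past the threshold. Gstp1, a widely expressed transferase, had 744, 772 and 496 normalized counts in Control and 934, 1009 and 874 in TfR1KO, with no overlap (0.48 on the log2 scale, adjusted p = 0.139 by DESeq2). Gsto1, an omega enzyme that reduces dehydroascorbate and glutathionylated thiols, and Gstt3 also had non-overlapping groups (0.59 with adjusted p = 0.0617, and 0.73 with adjusted p = 0.120 by DESeq2). Of the exonic bases of Gstt3, 19.9% are shared with a neighbouring gene model on its strand.

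Little separated the groups for Gstt1 (0.0075 on the log2 scale), Gstt2 (-0.30), the mitochondrial Gstk1 (-0.18) and Gstz1 (0.23), an enzyme of tyrosine breakdown. Gsto2 (-1.03, adjusted p = 0.285 by DESeq2) and Gstp2 (0.44) were low, with at most 57.0 and 15.9 normalized counts in any library. Theta genes made up 19.0 to 21.0% of the reads of the soluble classes in Control and 10.99 to 12.7% in TfR1KO, and mu genes 32.6 to 36.0% and 43.1 to 49.1%. These shares moved while the summed theta level was 1.04-fold Control.

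Of the membrane-bound transferases, Mgst1, which protects endoplasmic reticulum and mitochondrial membranes, had 2870, 2321 and 2742 normalized counts in Control and 2158, 6291 and 3209 in TfR1KO. TfR1KO held both the lowest and the highest library (0.56 on the log2 scale, adjusted p = 0.338 by DESeq2). Mgst3 (-0.36, adjusted p = 0.198) and Mgst2 (-1.93, adjusted p = 0.107 by DESeq2, at most 33.8 normalized counts) were higher in all Control libraries without passing. Mgst2 had 41, 9 and 14 reads in Control and 6, 5 and 3 in TfR1KO, and met the read limit only through Control.

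**Figure D4:**
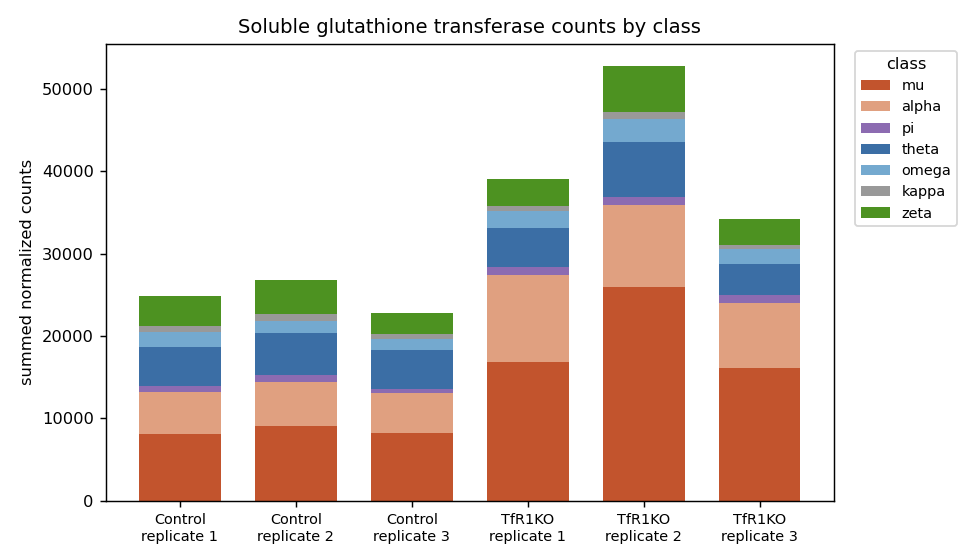
Normalized counts summed over the members of each soluble class (y axis), stacked in 1 bar per library. The bars reach 22846 to 26742 in Control and 34174 to 52804 in TfR1KO, and the mu (8086 to 9053, then 16070 to 25940) and alpha segments (4818 to 5397, then 7974 to 10498) hold most of the difference.

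Glutathione peroxidases. Gpx3, the secreted peroxidase that the kidney supplies to plasma, was the most abundant member by far: per kb of exon it had 70824 normalized counts in Control, against 12560 for Gpx1, 4945 for Gpx4 and 2206 for Gsta4. It took up 0.52 to 0.79% of all counts in Control and 1.03 to 1.804% in TfR1KO. By library it had 139814, 152556 and 92839 normalized counts in Control and 197450, 403548 and 200456 in TfR1KO. The groups did not overlap, and TfR1KO replicate 2 stood far above all other libraries.

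The log2 fold change of Gpx3 was 1.06 ± 0.34 (SE; adjusted p = 0.0173 by DESeq2 and 0.177 by edgeR). Its call was lost without Control replicate 1 (adjusted p = 0.0627 by DESeq2), without Control replicate 3 (0.0747) and without TfR1KO replicate 2, where the change was 0.64 (0.0917). The sum over all peroxidases was 1.94-fold Control, and without Gpx3 it was 1.07-fold (21114 ± 872 and 22553 ± 4947 normalized counts, SD, n = 3), with overlapping groups.

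Gpx1, the main cytosolic peroxidase, had 10662, 10641 and 10612 normalized counts in Control and 11253, 16785 and 9709 in TfR1KO. The TfR1KO libraries lay on both sides of Control (0.24 on the log2 scale, 95% interval -0.22 to 0.71, adjusted p = 0.548 by DESeq2). Gpx4, which reduces phospholipid peroxides in membranes and restrains ferroptosis, an iron-dependent form of cell death, had 7925, 8137 and 8785 in Control and 8639, 9566 and 7121 in TfR1KO. These groups overlapped, and the interval of the difference, -0.31 to 0.37 on the log2 scale, bounds it to less than the 2-fold limit in either direction (0.027, adjusted p = 0.943 by DESeq2).

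The endoplasmic reticulum peroxidases Gpx7 and Gpx8 and the related Gpx6 were higher in every Control library than in any TfR1KO library but did not pass. Their log2 fold changes were -0.75 (adjusted p = 0.158), -0.45 (0.144) and -0.52 (0.192 by DESeq2). Control replicate 3, which also had the highest sum of fibroblast markers, gave the top values of Gpx7 (695) and Gpx8 (1421 normalized counts). Gpx2, the gut peroxidase, had 4, 0 and 0 reads in Control and 2, 6 and 7 in TfR1KO. Gpx5, the epididymal form, had 0 reads in all 6 libraries, which allows up to 3 counts per library, and Gpx2-ps1 and Gstt4 had at most 1 and 10 reads in any library.

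Gamma-glutamyltransferases. Ggt1, the brush border enzyme, had 8983, 9836 and 3737 normalized counts in Control and 11220, 8425 and 7045 in TfR1KO. Control replicate 3 was far below the other Control libraries, and the groups overlapped (0.24 on the log2 scale, 95% interval -0.48 to 0.96, adjusted p = 0.722 by DESeq2). Ggt5, which acts on leukotriene C4, was higher in TfR1KO without passing (0.72, adjusted p = 0.112), as TfR1KO replicate 2 fell within the Control range (486, 232 and 455 against 231, 219 and 265 normalized counts). Without that library the change of Ggt5 was 0.99 (adjusted p = 7.27e-05 by DESeq2). Ggt6 and Ggt7 had 0.36 and -0.37 on the log2 scale.

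**Figure D5:**
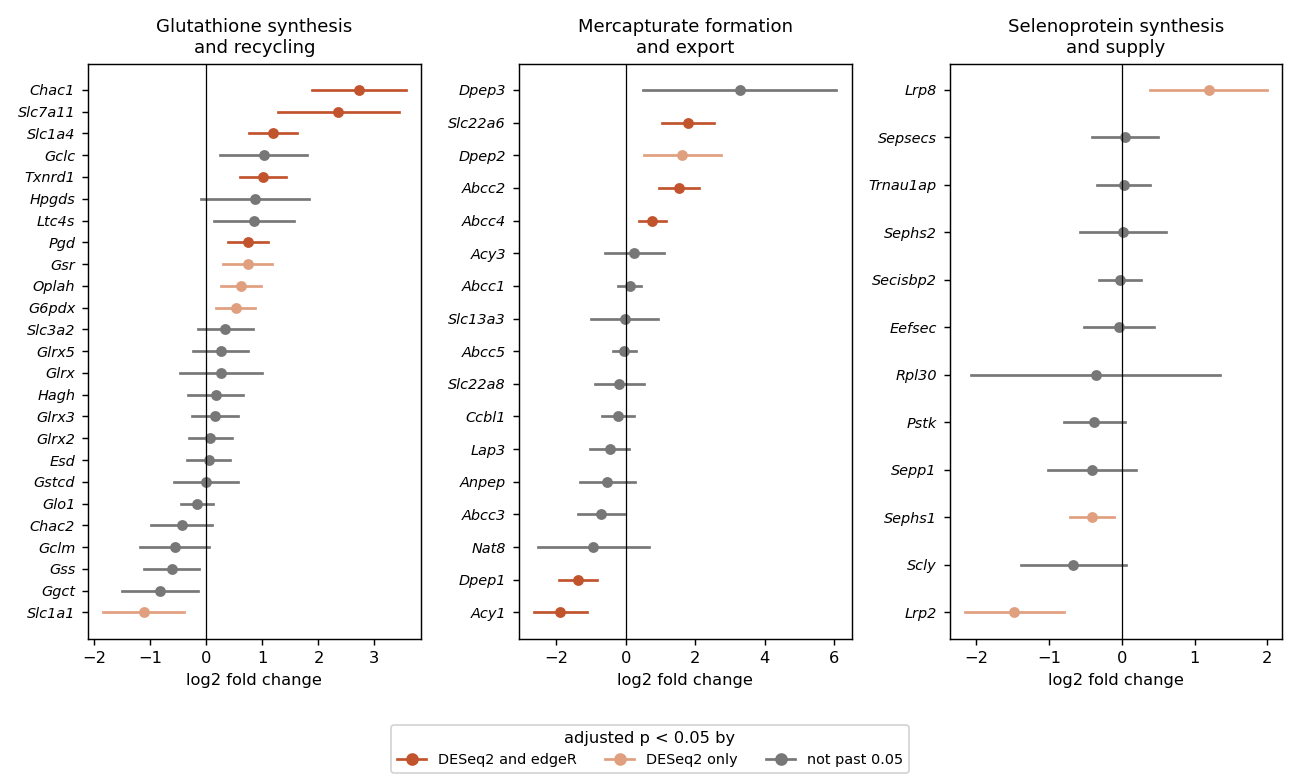
Log2 fold change (TfR1KO over Control, x axis) with 95% intervals from DESeq2 for each gene of 3 lists, coloured by whether DESeq2 and edgeR, DESeq2 alone or neither called it. Called genes of the glutathione list lie above 0 apart from Slc1a1 at -1.12, and the mercapturate list has called genes on both sides, from Acy1 at -1.89 to Slc22a6 at 1.79.

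Of 25 genes that supply and recycle glutathione, 8 were higher in TfR1KO by DESeq2 (Chac1, Slc7a11, Slc1a4, Txnrd1, Pgd, Gsr, Oplah and G6pdx) and 1 was lower (Slc1a1, a glutamate and cysteine carrier), against 7.74% higher and 7.18% lower of all genes. By edgeR 5 were higher, and the median log2 fold change was 0.26. Slc1a1 had overlapping groups (-1.12, adjusted p = 0.0231 by DESeq2 and 0.106 by edgeR), and its call was lost without Control replicate 1 (adjusted p = 0.184), Control replicate 2 (0.183), TfR1KO replicate 2 (0.0571) or TfR1KO replicate 3 (0.116), all by DESeq2. Chac1, which degrades glutathione inside the cell and is induced in the amino acid stress response, had 19.0, 20.0 and 25.8 normalized counts in Control and 172, 79.3 and 173 in TfR1KO (2.72, adjusted p = 1.33e-08 by DESeq2). Slc7a11, the cystine carrier, had 16.5, 16.4 and 26.9 in Control and 49.7, 175 and 79.5 in TfR1KO (2.35, adjusted p = 4.40e-04 by DESeq2). Both genes were low in level, and no library of either group crossed into the other.

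Gsr, glutathione reductase, had 2774, 2573 and 1730 normalized counts in Control and 4019, 3955 and 3815 in TfR1KO (0.74, adjusted p = 0.00957 by DESeq2 and 0.0672 by edgeR). The subunits of the rate-limiting enzyme of glutathione synthesis did not pass with all libraries and had opposite signs. Gclc, the catalytic subunit, had 2806, 2987 and 2171 in Control and 3010, 9153 and 4054 in TfR1KO (1.03, adjusted p = 0.0594), and Gclm, the modifier, had -0.56 (adjusted p = 0.230 by DESeq2). Gclc was 0.42 without TfR1KO replicate 2 and 1.31 without TfR1KO replicate 1, where it was called (adjusted p = 0.00329), as it was with the replicate block (0.87, adjusted p = 0.0133). Gclm was called without Control replicate 3 (-0.85, adjusted p = 1.80e-04 by DESeq2).

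Of 17 genes that carry conjugates on to mercapturates and out of the cell, 4 were higher and 2 lower by DESeq2. Over all genes tested, 7.74% were higher and 7.18% lower. By edgeR 3 of the 17 were higher and 2 lower, and their median log2 fold change by DESeq2 was -0.038. Higher were the transporters Abcc2 (1.54, adjusted p = 9.88e-06), Abcc4 (0.77, adjusted p = 0.00222) and Slc22a6 (1.79, adjusted p = 1.05e-04), and Dpep2 (1.63, by DESeq2 only and in 2 of the 6 fits with a library left out). Lower were Dpep1, the brush border dipeptidase that follows Ggt1 (-1.38, adjusted p = 1.91e-05), and Acy1, an aminoacylase (-1.89, adjusted p = 3.70e-05 by DESeq2). Anpep, another brush border peptidase, had -0.53 and did not pass.

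Of 12 genes for selenium supply and selenoprotein synthesis, DESeq2 found 1 higher (Lrp8) and 2 lower (Lrp2 and Sephs1), with a median of -0.20, where 7.74% of all genes were higher and 7.18% lower, and edgeR called none of them, with 1 higher and 2 lower at an unadjusted p under 0.05. With a library left out, Lrp8 was called in 1 of 6 fits, Sephs1 in 0 of 6 and Lrp2 in 6 of 6. Lrp2, megalin, through which the proximal tubule takes up selenoprotein P, had 25256, 26255 and 12909 normalized counts in Control and 10851, 6311 and 5937 in TfR1KO (-1.48, adjusted p = 4.60e-04 by DESeq2). Sepp1, selenoprotein P itself, had overlapping groups (-0.41, adjusted p = 0.409). Of 15 Nrf2 targets that are not members, 8 were higher and 0 lower by DESeq2, against 7.74% and 7.18% of all genes. By edgeR 6 were higher and 0 lower, against 3.22% and 2.8%, and the median by DESeq2 was 0.74. Of the 15, 5 are also in the glutathione list and 1 in the mercapturate list. The list was chosen with earlier results of these data known, and a part of Nrf2 in these changes was not tested. Nqo1, a textbook target, had 431, 444 and 348 normalized counts in Control and 747, 1998 and 1276 in TfR1KO (1.72, adjusted p = 3.76e-05 by DESeq2). Of the 7 targets without a call, Me1 had -0.92 (adjusted p = 0.0682 by DESeq2), Gclm -0.56 and Hmox1 0.33, each with overlapping groups.

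Markers of kidney and other cells moved too, and in bulk RNA fewer cells of a type and less RNA per cell cannot be told apart. For the counts below, 7.74% of all genes were higher and 7.18% lower by DESeq2, and 3.22% and 2.8% by edgeR. In short lists a count of 1 is little above these shares. Of 15 proximal tubule markers, 2 were higher (Pck1 and Slc22a6) and 4 lower by DESeq2, and 2 and 2 by edgeR. The 4 lower were Slc7a13 (-6.04 on the log2 scale), Slc5a2 (-5.12), Lrp2 (-1.48) and Aqp1 (-0.92, with overlapping groups). The sum over all 15 markers was 109438 to 214187 normalized counts in Control and 171086 to 301325 in TfR1KO, 1.26-fold higher in mean. Without Pck1, a gluconeogenic enzyme that makes up much of the sum, it was 89491 to 180816 in Control and 82410 to 129816 in TfR1KO, 0.709-fold in mean. The groups overlapped in both sums, with Control replicate 3 lowest in Control, as for Gsta2, Gpx3 and Ggt1. Of 8 thick limb and distal markers, 7 were lower by DESeq2 and 6 by edgeR. Collecting duct markers had 5 of 10 higher and 2 lower by DESeq2, and 2 and 2 by edgeR. Macrophage markers had 8 of 12 higher by DESeq2 and 6 by edgeR, with sums of 3076 to 5268 in Control and 8563 to 10867 in TfR1KO. Fibroblast markers had 3 of 8 lower by DESeq2 and 0 by edgeR (3 at an unadjusted p under 0.05), with sums of 70247 to 144504 in Control and 37488 to 68915 in TfR1KO. Of 8 endothelial markers, 1 was higher by DESeq2 and 0 by edgeR (1 at an unadjusted p under 0.05). Of 9 erythroid genes counted, 4 globin genes were at 0 in all libraries, and 1 of the 5 tested was lower, Slc4a1, which is also 1 of the 2 lower collecting duct markers. Alas2 of the same list had 1229 to 5707 reads per library, so the globin zeros are not read as levels. Why they were at 0 was not tested. The part of these shifts in the values of Gsta1, Gsta2, Gstm1, Gstm5, Gstm7 and Gpx3 was not tested.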

How the data were processed

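Poly-A RNA of 6 whole kidneys was measured. Per the study's methods, the authors trimmed single-end reads with Trimmomatic after CASAVA 1.8.2, aligned them to mm9 with TopHat2 2.0.11 and deposited raw counts of uniquely aligned reads per gene from HTSeq; the annotation and strand setting are not given in the sources used here. Reads that match more than 1 gene are lost by this, which lowers near-identical copies. Total counts of 16591156 to 22898008 make counting error small except for rare genes, and 3 libraries per group limit the precision. Intervals on reads cover counting error only.

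Groups and replicate numbers came from the labels, which call the samples biological replicates. All genes were fitted with DESeq2 1.42.0 in R 4.3.3 (Wald test, median-ratio size factors, independent filtering at 0.05, Benjamini-Hochberg adjustment over 16509 genes, no covariate), the study's tool. edgeR 4.0.16 (quasi-likelihood test, TMM) is given beside it, since on simulated data it made fewer false calls. limma 3.58.1 with voom, other size factors and filters, a replicate block and leaving out each library were alternatives. The code was tested on simulated data. Members and lists were chosen with earlier results of these data known. Named with full values are members with an adjusted p under 0.05, preset members and list genes, and the called list genes of largest change. Nqo1, Me1, Hmox1, Pck1, the other called list genes, the unnamed alpha relatives, the other members' single values and the sex markers were named after their values were seen. Positions and lengths came from GENCODE vM1 on mm9, upstream sequence and start sites from RefSeq on GRCm38.p6 (33 of 37 members matched by symbol). Class sums add the normalized counts of all members of a class.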

Additional observations from a re-analysis of the deposited data

How the results depend on the processing

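Gstm1 and Gsta2 were called higher in TfR1KO under all alternatives run. Gsta1 was too, but it met the read limit only through the TfR1KO libraries, so its calls add no support. The members called higher, 6 by DESeq2, numbered 3 by edgeR and 3 by limma-voom, and 4 to 7 with each library left out. Those at least 2-fold higher, 5, numbered 3 by edgeR, 3 by limma-voom, 3 with total-count scaling and 3 to 6 with a library left out. Members called lower, 0, numbered 1 with total-count scaling (Gpx6) and 0 to 2 with a library left out (Gstm4 and Gsto2 without TfR1KO replicate 1, Gpx6 and Gstt2 without TfR1KO replicate 2), and 0 to 1 at 2-fold. Total-count scaling moved the median of all genes to -0.097, and the cause of its calls was not tested.

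Of the glutathione list, 9 were called by DESeq2, 5 by edgeR, 4 by limma-voom and 5 to 13 with a library left out; the mercapturate list had 5 to 9. The selenoprotein list, with 3, had 0 by edgeR, 0 by limma-voom and 1 to 2 with a library left out.

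With the replicate number as a replicate block, 7 members were called higher (Gstt3 joined) and 0 lower, with 10 in the glutathione list, 5 in the mercapturate list and 1 in the selenoprotein list. Same-numbered libraries did not deviate together (correlations of -0.038, 0.055 and 0.090), and nothing in the labels ties equal numbers to a shared litter or day.

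Alternatives chosen after seeing the data were a term for libraries with Y-linked reads and leaving out Control replicate 3 and TfR1KO replicate 2 together. The first gave 7 members higher (Gsto1 joined), 0 lower and 1 gene of the selenoprotein list. The second gave 6 higher and 2 lower (Gpx6 and Gstt2).

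The sign of uncalled genes near 0 turned. Gpx1 was -0.018 without TfR1KO replicate 2 and -0.022 without both libraries. Gpx4 was -0.090 with total-count scaling, -0.0089 without Control replicate 1, -0.068 without TfR1KO replicate 2 and -0.027 without both. Ggt1 was -0.084 without Control replicate 3 and -0.043 without both. With each library left out, Gpx1 reached 0.40, Gpx4 0.14 and Ggt1 0.48. The causes were not tested. Of the named genes' values under alternatives, 361 kept direction and call, 39 lost the call, 8 gained it and 8 turned sign. With 3 libraries a group, differences near those of Gstm7 are not stable, and reads shared between copies limit Gsta1, Gsta2 and the Gstp genes.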
